A study of Homo sapiens with 6 samples.

Results

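Transcripts of 31 amino acid transporter genes were examined in cardiomyocytes made from human induced pluripotent stem cells of the established line WTC11. The genes belong to the solute carrier families SLC1, SLC3, SLC6, SLC7, SLC36, SLC38 and SLC43. They were chosen by symbol, as carriers of the plasma membrane or the lysosome, with earlier results of these data known. All 31 were found among the 38557 genes listed. The cells had been kept in RPMI plus B27, a serum-free supplement, or in DMEM plus fatty acids, with 3 biological replicates of each medium, numbered 1 to 3 in both. Both groups share the line and carry the entry WT, with no edited gene named. What the media contained and how long the cells were in them is not in the labels, so the amino acids supplied to each group are not known here. The single comparison sets DMEM plus fatty acids beside RPMI plus B27 and asks which carriers' transcripts differ between these media. The basal medium and the supplement change together, so their parts cannot be told apart.

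Amino acids cross membranes on carriers that differ in substrate and in what drives them. Carriers of system A and system N, in the SLC38 family, move glutamine and other small neutral amino acids together with sodium. The exchangers of the SLC7 family are light chains that need the SLC3A2 or SLC3A1 heavy chain to reach the cell surface, where they trade one amino acid for another. Cationic amino acid transporters, also in SLC7, carry arginine and lysine without a heavy chain. The SLC1 family holds the carriers of glutamate and aspartate and exchangers of alanine, serine, cysteine and glutamine. At the lysosome, SLC36 and several SLC38 proteins release amino acids to the cytosol or report them to mTORC1, the kinase complex that couples amino acid supply to growth. When amino acids run short, the kinase GCN2 and the transcription factor ATF4 raise many carrier genes.

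The libraries held 23232324 to 31035389 gene counts. Over all 16107 genes that passed the filter on low counts, 0.292% had higher and 1.07% lower levels called in DMEM plus fatty acids (edgeR quasi-likelihood test, Benjamini-Hochberg adjusted p under 0.05). With the replicate number as a block these shares were 1.36% and 3.42%. The labelled cell type was matched by its markers: 10 of 10 cardiomyocyte markers were tested, 0 were called (edgeR, 3 at an unadjusted p under 0.05, 2 called lower with the block), and their summed level was 28541 to 35688 CPM (gene counts scaled to a common library size by TMM, written CPM) in RPMI plus B27 and 23128 to 32832 CPM in DMEM plus fatty acids. Markers of other cells differed between the media. Of 12 fibroblast and stromal markers 6 were called lower (8 with the block), with a summed level of 4341 to 8415 CPM in RPMI plus B27 against 758 to 1959 CPM, and DCN had no count in DMEM plus fatty acids replicate 1. Of 5 smooth muscle markers 1 was called lower, 2 with the block (1555 to 1949 against 311 to 1125 CPM). Of 7 epicardial markers 5 were tested and 1 was called lower, 4 with the block (1971 to 2394 against 882 to 1097 CPM). The keratin genes KRT8, KRT18 and KRT19 made up most of that sum, and KRT8 was the 1 called. WT1 and UPK3B were not tested, and TBX18 and ALDH1A2 averaged 4.98 and 0.736 CPM in RPMI plus B27. Of 6 endothelial markers 0 were called (edgeR, 2 at an unadjusted p under 0.05, 1 called higher with the block), with 54.8 to 249.2 against 119 to 471 CPM, but KDR made up most of that sum. The 2 under 0.05, TEK (log2 fold change -2.13) and EGFL7 (-1.27), were lower, CDH5 had no count in any library of DMEM plus fatty acids, and PECAM1 and VWF had none in at least 1 library. The part of these cells in the transporter values was not tested. In such bulk samples, fewer cells of a type and less RNA per cell cannot be told apart.

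Of the 31 transporter genes 27 passed the filter on low counts, and 2 of them rose in DMEM plus fatty acids, SLC7A8 and SLC7A3, while 0 fell. Both are members of the SLC7 family. The filter asks for 0.358 CPM in 3 libraries, and SLC7A3 reached it in 2 of RPMI plus B27 and 3 of DMEM plus fatty acids. SLC7A3 thus needed the latter libraries to pass, so in this fit only the SLC7A8 call is free of the filter's choice. With the replicate number as a block SLC1A4 rose as well. The background is the 0.292% of genes called higher (1.36% with the block). Because the 31 genes were chosen with earlier results known, their counts beside the shares of all genes are no independent evidence. At an unadjusted p under 0.05, edgeR put 7 transporters higher and 1 (SLC7A7) lower, beside 7.7% and 9.98% of all genes. DESeq2 called SLC7A7 lower and 4 higher (SLC7A8, SLC7A3, SLC38A6 and SLC38A9). By DESeq2 2.47% of all genes were called higher and 5.24% lower. The fitted value lay above 0 for 17 of the 27 and below 0 for 10, where 51.0% of all tested genes lay above 0 and 49.0% below. The median log2 fold change of the 27 was 0.25, beside 0.01 over all tested genes. The 3 libraries of DMEM plus fatty acids were all above the 3 of RPMI plus B27 for 7 transporters and all below for 1, and 12.8% of all genes did so in each direction. Together the 31 genes took 0.137% to 0.149% of the gene counts of a library in RPMI plus B27 against 0.161% to 0.218% in DMEM plus fatty acids. These ranges did not overlap, but they are of raw counts, before TMM scaling (factors 0.951 to 0.978 and 1.00 to 1.09). That scaling narrows the gap, so they are no result for the scaled total. After TMM scaling the summed level of SLC38, the highest of the families, overlapped (785 to 939 against 792 to 1353 CPM). The sums of SLC7 (248 to 283 against 225 to 308 CPM) and SLC1 (204 to 259 against 177 to 306 CPM) overlapped too. That of SLC3 did not (41.8 to 52.1 against 57.0 to 153.5 CPM).

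**Figure D1:**
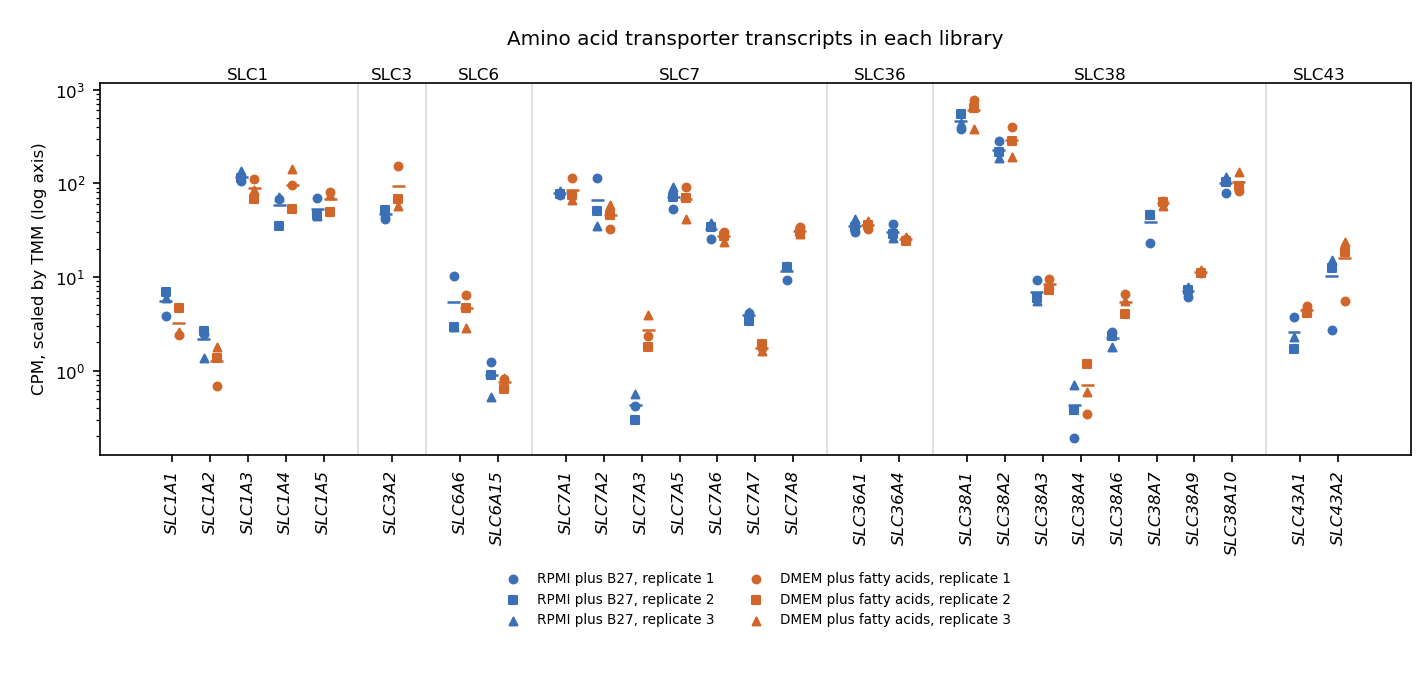
Level of the 27 transporter genes that passed the filter, as CPM scaled by TMM on a log axis, grouped by family. Blue points are RPMI plus B27 and orange points DMEM plus fatty acids, the marker shape gives the replicate number and the short line the mean of 3 libraries. The groups stand apart for SLC7A8 (9.31 to 13.0 against 29.02 to 34.0 CPM) and for SLC7A3 (0.298 to 0.559 against 1.77 to 3.97 CPM), and overlap for SLC7A5.

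The light chains of the SLC7 family did not move alike. SLC7A8, or LAT2, is an exchanger of neutral amino acids that works with the SLC3A2 heavy chain (chromosome 14, 23125295 to 23183674, GRCh38). Its level was 9.31, 12.8 and 13.0 CPM in RPMI plus B27 replicates 1 to 3 and 34.0, 30.1 and 29.02 CPM in DMEM plus fatty acids. All 3 libraries of DMEM plus fatty acids lay far above those of RPMI plus B27, and the spread within each medium was small. The mean rose from 11.7 ± 2.07 to 31.03 ± 2.63 CPM (SD, n = 3 for either medium), a log2 fold change of 1.41 ± 0.18 (SE) or 2.65-fold, with an edgeR adjusted p of 0.0292 (0.0201 with the block, 1.59e-09 to 0.0965 over its 12 alternatives). Without 1 library the log2 fold change ran from 1.27 to 1.49. The call was kept without RPMI plus B27 replicate 1 or 3 (edgeR adjusted p 0.0494 and 0.0418), and it was lost without RPMI plus B27 replicate 2 (0.0965) and without DMEM plus fatty acids replicate 1 (0.0854), 2 (0.0840) or 3 (0.0828).

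SLC7A5, or LAT1, the widely expressed exchanger of large neutral amino acids, showed no such difference. Its level was 53.5, 71.0 and 90.9 CPM in RPMI plus B27 and 91.6, 69.8 and 41.8 CPM in DMEM plus fatty acids. The order of the replicates was turned around between the media, with replicate 1 lowest in one and highest in the other. Its log2 fold change was -0.09 ± 0.30, with a 95% interval of -0.79 to 0.62 and an edgeR adjusted p of 0.908. Scaling by total counts put it at 0.0070. SLC7A5P2, a near-identical pseudogene, is listed in the files beside SLC7A5, and reads that align to both may have been set aside.

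Within a library, the ratio of SLC7A5 to SLC7A8 does not depend on how libraries are scaled. Per kb of exon, SLC7A5 exceeded SLC7A8 by 7.25, 7.01 and 8.85 times in RPMI plus B27 replicates 1 to 3 and by 3.40, 2.93 and 1.82 times in DMEM plus fatty acids. All 3 ratios of DMEM plus fatty acids were below all 3 of RPMI plus B27. The mean log2 ratio was 2.94 ± 0.18 in RPMI plus B27 and 1.39 ± 0.47 in the other medium (SD, n = 3 each), a difference of -1.54. The exact two-sided permutation p was 0.1, the smallest that 3 against 3 libraries allow (0.3 after Benjamini-Hochberg adjustment over 6 ratios). The 6 ratios were chosen with earlier results of these data known. This ratio restates the higher level of SLC7A8 beside that of SLC7A5 and is no separate evidence.

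The sequence before the SLC7A8 start is shown because SLC7A8 was called in both fits. RefSeq lists 4 starts for this gene, and counts per gene do not tell which of them was used. These are the 250 bases before the most upstream start (GRCh38.p14, chr14:23183661-23183910, minus strand), with a TGACGT match, the core bound by CREB and ATF factors, in capitals.
SLC7A8 upstream: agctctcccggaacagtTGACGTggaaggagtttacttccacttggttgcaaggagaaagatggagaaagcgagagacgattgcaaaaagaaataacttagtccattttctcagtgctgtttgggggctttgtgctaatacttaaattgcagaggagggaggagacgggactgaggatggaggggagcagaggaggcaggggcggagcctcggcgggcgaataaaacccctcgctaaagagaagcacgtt
TGACGT, searched on both strands, occurs in 7.98% of the 35116 RefSeq windows of 300 bases (250 before to 50 after a start), and in 3 of the 45 windows of transporters (SLC7A8, SLC7A6 and SLC36A4). A match is a string of letters and not a measured binding site.

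The light chains SLC7A6 and SLC7A7, which exchange cationic for neutral amino acids, had fitted values below 0 and were not called. SLC7A7, or y+LAT1, stood at 4.14, 3.36 and 4.21 CPM in RPMI plus B27 and at 1.72, 1.94 and 1.63 CPM in DMEM plus fatty acids. Its groups did not overlap, and it was the one transporter whose 3 values in DMEM plus fatty acids were all below those in RPMI plus B27. Its fitted log2 fold change was -1.15 ± 0.25 (edgeR adjusted p 0.0803, 0.0660 with the block, 0.00166 by DESeq2, 0.00166 to 0.219 over its 12 alternatives). SLC7A6 stood at 25.2, 33.9 and 38.0 CPM and at 30.4, 27.1 and 23.7 CPM, with overlapping groups (log2 fold change -0.26, 95% interval -0.69 to 0.17). In GENCODE 29 its exons overlap those of SLC7A6OS on the other strand, and the strand setting of the counting is not given in the sources used here. SLC7A10, a small neutral amino acid exchanger of the brain, had 1, 1 and 0 counts in RPMI plus B27 and 0, 0 and 2 in DMEM plus fatty acids.

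SLC3A2, the heavy chain (4F2hc, or CD98) that SLC7A5, SLC7A6, SLC7A7 and SLC7A8 share, was at 41.6, 52.0 and 47.7 CPM in RPMI plus B27 and at 153.1, 68.1 and 57.0 CPM in DMEM plus fatty acids. The groups did not overlap, but DMEM plus fatty acids replicate 1 stood far above the other libraries. The fitted log2 fold change of SLC3A2 was 0.98 ± 0.36 (edgeR adjusted p 0.217), and it was 0.41 without that library. Per kb, the ratio of SLC7A5 to SLC3A2 was 1.40, 1.49 and 2.08 in RPMI plus B27 and 0.653, 1.12 and 0.801 in DMEM plus fatty acids, again with no overlap. The mean log2 ratio was 0.71 ± 0.31 in RPMI plus B27 and -0.26 ± 0.39 in the other medium (SD, n = 3 each), a difference of -0.97, with an exact two-sided permutation p of 0.1 (0.3 adjusted). The other heavy chain, SLC3A1, known from kidney and gut, had 6, 2 and 1 counts in RPMI plus B27 and 9, 0 and 2 in DMEM plus fatty acids and did not pass the filter.

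**Figure D2:**
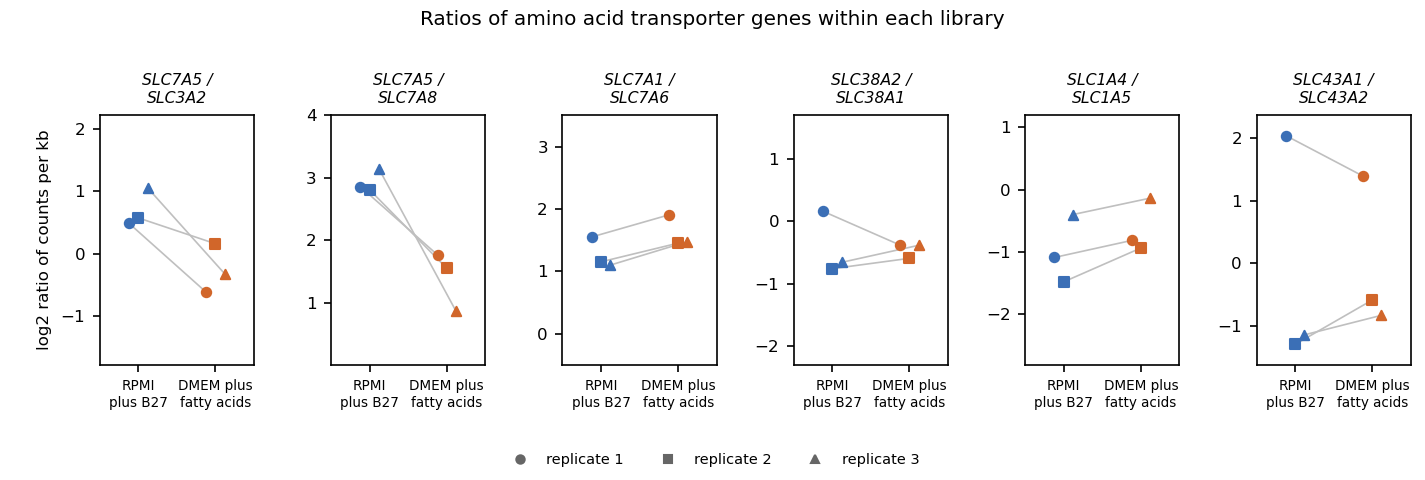
Ratios of 6 pairs of transporter genes within each library, as log2 of counts per kb of exon. Every panel spans 4 log2 units, marker shapes give the replicate number and grey lines join libraries of equal number. Only for SLC7A5 over SLC3A2 and SLC7A5 over SLC7A8 are all 3 points of DMEM plus fatty acids below all 3 of RPMI plus B27.

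The cationic amino acid transporters SLC7A1, SLC7A2 and SLC7A3 (CAT1, CAT2 and CAT3) take up arginine and lysine. SLC7A3 (chromosome X, 70925582 to 70931125) was the least abundant of the 3 in both media. It had 11, 7 and 15 counts in RPMI plus B27 and 54, 53 and 134 in DMEM plus fatty acids, which is 0.414, 0.298 and 0.559 CPM against 2.33, 1.77 and 3.97 CPM. Every library of DMEM plus fatty acids was above every library of RPMI plus B27, and replicate 3 was the highest in both media. The mean rose from 0.424 ± 0.131 to 2.69 ± 1.14 CPM (SD, n = 3 for either medium), a log2 fold change of 2.65 ± 0.44 with an edgeR adjusted p of 0.0427 (0.0163 with the block, 2.57e-05 to 0.134 over its 11 alternatives). This call was lost without any 1 of the 6 libraries, with edgeR adjusted p values of 0.0709 (without RPMI plus B27 replicate 3) to 0.134 (without RPMI plus B27 replicate 2). The log2 fold change itself stayed between 2.26 and 2.90 in these fits. Of the RPMI plus B27 libraries 2 of 3 reached the 0.358 CPM that the filter on low counts asks of 3 libraries, and all 3 of DMEM plus fatty acids did. With a minimum of 10 counts asked of each library, SLC7A3 was not among the genes tested. Without a filter on low counts it was called (edgeR adjusted p 0.0107).

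SLC7A1, the general arginine carrier, was at 75.1, 76.4 and 82.7 CPM in RPMI plus B27 and at 115.4, 75.1 and 67.05 CPM in DMEM plus fatty acids. The groups overlapped, and the 95% interval of the log2 fold change (0.14) was -0.34 to 0.61. SLC7A2 stood at 115.1, 50.4 and 34.6 CPM and at 32.3, 46.4 and 58.1 CPM. Replicate 1 was thus its highest library in RPMI plus B27 and its lowest in DMEM plus fatty acids. The log2 fold change was -0.55 (95% interval -1.56 to 0.47), and it was 0.10 without RPMI plus B27 replicate 1.

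**Figure D3:**
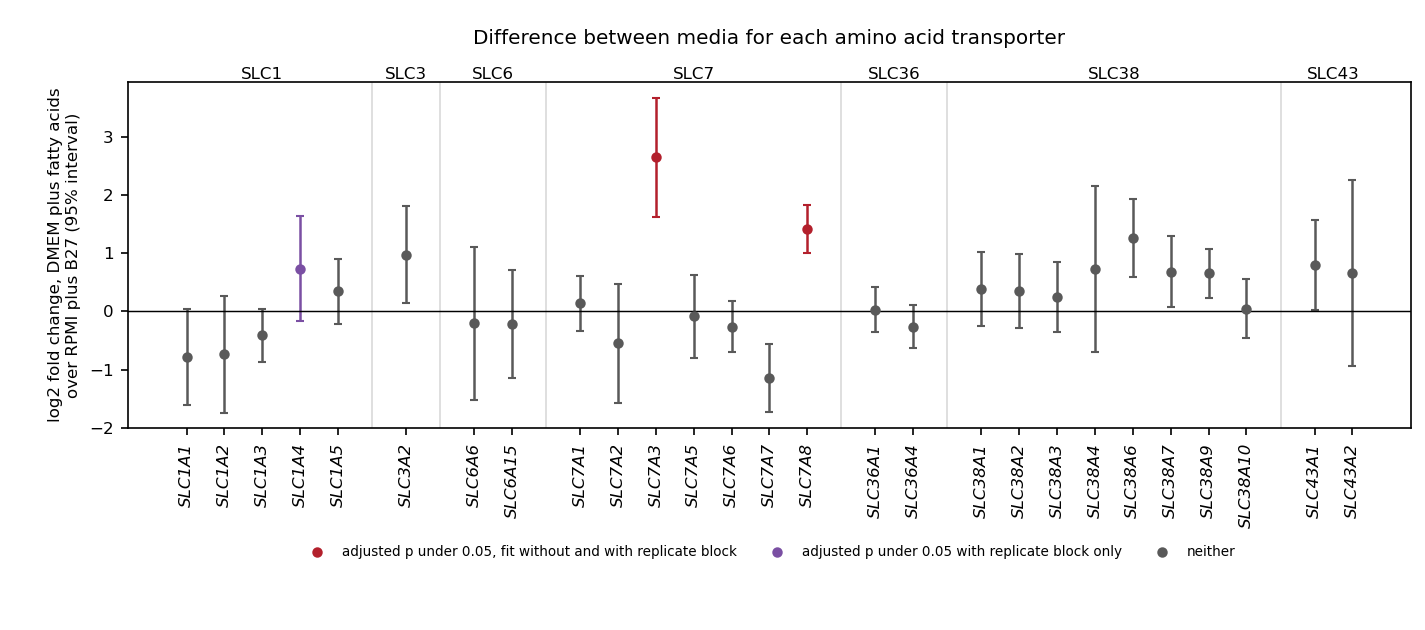
Fitted log2 fold change between the media (above 0 is higher in DMEM plus fatty acids) with its 95% interval for each of the 27 transporters, by family. Red marks SLC7A3 and SLC7A8, called by edgeR without and with the replicate block, violet marks SLC1A4, called with the block only, and grey marks the rest. All 8 SLC38 points lie above 0, the lowest of them SLC38A10 at 0.05.

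In the SLC38 family 8 of 9 members passed the filter, 0 were called in either direction by edgeR, with or without the block, and 3 (SLC38A6, SLC38A7 and SLC38A9) had an unadjusted p under 0.05. DESeq2 called SLC38A6 and SLC38A9. All 8 fitted values lay above 0 (0.05 to 1.26, median 0.52), also under RLE and total count scaling, while SLC38A10 changed sign without some libraries. The highest of them was SLC38A6, a little studied member. It was at 2.56, 2.34 and 1.79 CPM in RPMI plus B27 and at 6.54, 4.01 and 5.48 CPM in DMEM plus fatty acids, with no overlap (log2 fold change 1.26 ± 0.29, edgeR adjusted p 0.0854, 0.0558 with the block, 0.00238 to 0.209 over its 12 alternatives). Its exons overlap those of TRMT5 on the other strand.

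SLC38A9, the arginine sensor of the lysosome that signals to mTORC1, was at 6.18, 7.32 and 7.90 CPM in RPMI plus B27 and at 10.9, 11.1 and 11.7 CPM in DMEM plus fatty acids. The DMEM plus fatty acids libraries were close to one another and all above those of RPMI plus B27. The log2 fold change was 0.65 ± 0.18, with an edgeR adjusted p of 0.127 (0.0833 with the block, 0.0145 to 0.308 over its 12 alternatives). SLC38A7, a lysosomal carrier of glutamine and asparagine, stood at 23.1, 45.9 and 46.9 CPM and at 65.5, 62.9 and 57.8 CPM. Its groups did not overlap either, and replicate 1 was low in RPMI plus B27 only (log2 fold change 0.68 ± 0.26, edgeR adjusted p 0.232).

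SLC38A1 and SLC38A2 (SNAT1 and SNAT2), the system A carriers that take up glutamine and alanine, had overlapping groups. SLC38A1 was at 382.8, 556.4 and 445.8 CPM in RPMI plus B27 and at 781.3, 645.2 and 382.7 CPM in DMEM plus fatty acids. SLC38A2, a known target of amino acid shortage, was at 282.1, 216.8 and 186.4 CPM and at 395.3, 282.1 and 193.4 CPM. Both were highest in replicate 1 and lowest in replicate 3 of DMEM plus fatty acids. Their log2 fold changes were 0.39 (95% interval -0.25 to 1.02) and 0.35 (-0.29 to 0.98), and they were 0.15 and 0.06 without DMEM plus fatty acids replicate 1. The third system A carrier, SLC38A4, had 5 to 19 counts in RPMI plus B27 against 8 to 35 in DMEM plus fatty acids (log2 fold change 0.72, 95% interval -0.70 to 2.15).

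SLC38A3, the system N carrier of glutamine and histidine, was at 5.59 to 9.34 CPM in RPMI plus B27 and 7.19 to 9.60 CPM in DMEM plus fatty acids (log2 fold change 0.25). The other system N carrier, SLC38A5, had 6, 7 and 4 counts in RPMI plus B27 and 6, 33 and 2 in DMEM plus fatty acids, so only replicate 2 of DMEM plus fatty acids stood out, and it did not pass the filter. SLC38A10 was at 78.1 to 117.1 CPM and 83.0 to 132.2 CPM (log2 fold change 0.05, 95% interval -0.46 to 0.55). The SLC36 carriers, which export amino acids from lysosomes together with protons or work as exchangers there, had narrow intervals around 0. SLC36A1 ran from 29.9 to 42.0 CPM in RPMI plus B27 and from 32.6 to 39.8 CPM in DMEM plus fatty acids (log2 fold change 0.03, 95% interval -0.35 to 0.41). SLC36A4 ran from 26.1 to 36.6 CPM and from 24.1 to 26.5 CPM (-0.26, 95% interval -0.64 to 0.11).

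The SLC1 family had 2 fitted values above 0 and 3 below, with 0 of 5 called without the block (edgeR, 0 at an unadjusted p under 0.05, 0 by DESeq2). SLC1A4 and SLC1A5 (ASCT1 and ASCT2) exchange alanine, serine, cysteine and, for SLC1A5, glutamine. SLC1A4 was at 68.2, 34.7 and 71.1 CPM in RPMI plus B27 and at 95.3, 53.7 and 141.1 CPM in DMEM plus fatty acids. The groups overlapped, but in each pair of equal replicate number the library of DMEM plus fatty acids was higher, and replicate 2 was the lowest in both media. The fitted log2 fold change of SLC1A4 was 0.74 ± 0.39 (edgeR adjusted p 0.372), and with the replicate block it was 0.70 with 0.0394 (0.0394 to 0.661 over its 12 alternatives). SLC1A5 was at 69.6, 46.5 and 45.1 CPM and at 80.5, 49.3 and 74.5 CPM, also higher in each pair (log2 fold change 0.34, edgeR adjusted p 0.5005, 0.223 with the block). All 3 pairs were higher for 12 of the 27 transporters and lower for 2, where 25.8% and 24.0% of all genes were.

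The SLC1 carriers of glutamate and aspartate all had fitted values below 0. SLC1A3 (EAAT1), the most abundant of them, was at 105.5, 112.8 and 135.7 CPM in RPMI plus B27 and at 112.1, 68.2 and 85.8 CPM in DMEM plus fatty acids. Replicate 1 was slightly higher and replicates 2 and 3 were lower in DMEM plus fatty acids (log2 fold change -0.41, 95% interval -0.87 to 0.05, edgeR adjusted p 0.327). SLC1A1 (EAAT3) was at 3.84, 6.89 and 5.89 CPM and at 2.41, 4.61 and 2.58 CPM, lower in each pair (-0.79, 95% interval -1.61 to 0.04, edgeR adjusted p 0.302). SLC1A2 (EAAT2), the main glutamate carrier of astrocytes, was at 1.38 to 2.64 CPM and 0.689 to 1.78 CPM (-0.74).

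The SLC43 carriers of large neutral amino acids, which need no heavy chain or sodium, were higher in all 3 pairs but were not called. SLC43A1 (LAT3) was at 3.73, 1.70 and 2.27 CPM in RPMI plus B27 and at 4.91, 4.11 and 4.42 CPM in DMEM plus fatty acids, without overlap (log2 fold change 0.80 ± 0.33, edgeR adjusted p 0.265). SLC43A2 (LAT4) was at 2.71, 12.6 and 15.1 CPM and at 5.60, 18.6 and 23.7 CPM. Replicate 1 was far below the others in both media, and the highest library exceeded the lowest 5.58 times in RPMI plus B27 and 4.23 times in DMEM plus fatty acids. SLC43A2 therefore had the widest interval of its family, with a log2 fold change of 0.66 (95% interval -0.94 to 2.25, edgeR adjusted p 0.660, 0.0665 with the block). Per kb, SLC43A1 exceeded SLC43A2 in replicate 1 (4.13 times in RPMI plus B27 and 2.63 times in DMEM plus fatty acids) and was below it in the other 4 libraries.

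The SLC6 family was low throughout. SLC6A6, the taurine carrier, known for the large taurine pool of heart muscle, was at 10.2, 2.89 and 2.91 CPM in RPMI plus B27 and at 6.46, 4.68 and 2.85 CPM in DMEM plus fatty acids. One library, RPMI plus B27 replicate 1, stood above the rest (log2 fold change -0.20, and 0.68 without it). SLC6A15, a branched-chain amino acid carrier of the brain, had 14 to 33 counts in all libraries (-0.22, 95% interval -1.14 to 0.70). SLC6A14, a broad carrier of epithelia, had 0 counts in 5 libraries and 5 counts in DMEM plus fatty acids replicate 3. A count of 0 allows up to 3 counts, which is 0.0889 to 0.129 CPM depending on the library.

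**Figure D4:**
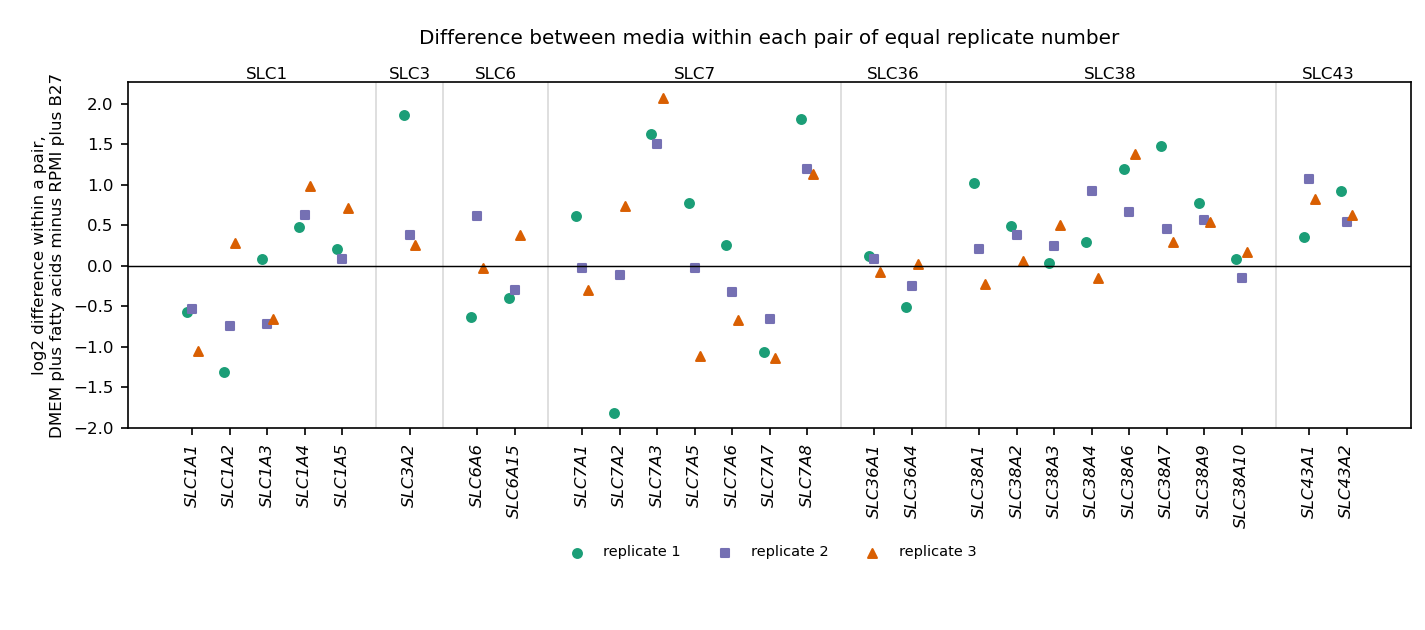
Difference between media on the log2 scale within each pair of equal replicate number, computed as log2 of CPM plus 0.5. Circles, squares and triangles are replicates 1, 2 and 3. All 3 points lie above 0 for SLC7A3, SLC7A8, SLC1A4 and SLC43A2, and replicate 1 stands above the other pairs for SLC3A2 (1.87), SLC38A1 (1.03) and SLC38A7 (1.48).

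Replicate 1 of DMEM plus fatty acids held the highest level of that medium for 14 of the 27 transporters (51.9%, against 36.6% of all tested genes), among them SLC3A2, SLC7A1, SLC7A5, SLC38A1 and SLC38A2. For SLC1A4, SLC7A3 and SLC38A9 the highest was replicate 3. In RPMI plus B27 it was replicate 3 that was highest for 14 of the 27 (51.9%, against 34.2% of all tested genes). Of 27 tested genes of the amino acid response, a list of ATF4, its kinases and its targets, 20 were highest in replicate 1 of DMEM plus fatty acids and 6, among them PSAT1 and PHGDH, in replicate 3. Their summed level was 1232 to 1367 CPM in RPMI plus B27 and 2000, 1360 and 1620 CPM in DMEM plus fatty acids replicates 1 to 3, and the part of this response in the transporter values was not tested.

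Levels of different genes were compared per kb of exon, using merged exons of GENCODE 29. SLC38A1 was the most abundant transporter in both media, with 46.1 ± 8.78 CPM per kb in RPMI plus B27 against 60.2 ± 20.2 in DMEM plus fatty acids (SD over 3 libraries). SLC38A2 came next with 34.6 ± 7.40 and 44.0 ± 15.3 CPM per kb, and the libraries of these neighbours overlapped in both media. In RPMI plus B27 SLC1A3 (18.8 ± 2.51), SLC1A5 (16.1 ± 4.13), SLC7A5 (15.1 ± 3.95) and SLC38A10 (12.9 ± 2.57) followed, and the libraries of each overlapped those of its neighbour in this order. SLC7A8 moved from rank 15 of 31 (1.95 ± 0.35 CPM per kb) in RPMI plus B27 to rank 12 (5.18 ± 0.44) in DMEM plus fatty acids, where it was level with SLC36A1 (5.17 ± 0.52). SLC7A3 moved from rank 24 (0.187 ± 0.058) to rank 20 (1.19 ± 0.505). The mean was under 1 CPM per kb in both media for 9 genes.

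**Figure D5:**
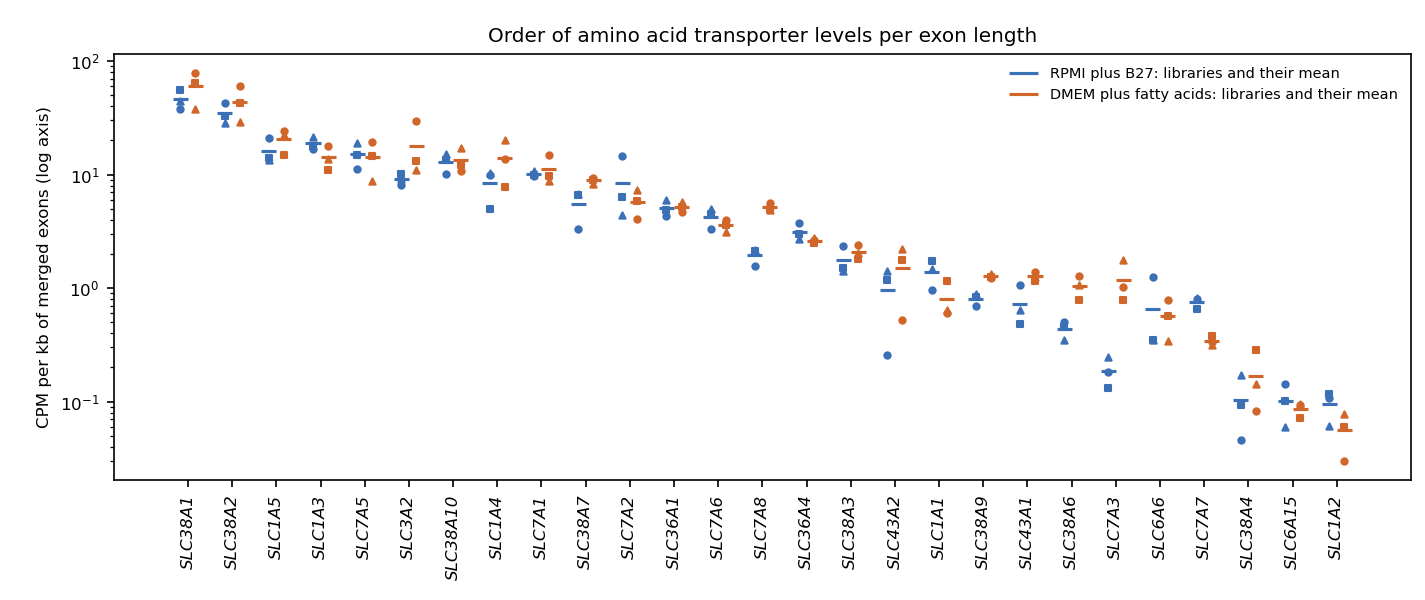
Level per exon length, in CPM per kb of merged exons on a log axis, of the 27 transporters that passed the filter, ordered by their mean over 6 libraries. Points are libraries (circle, square and triangle for replicates 1, 2 and 3) and lines are means of 3. SLC38A1 and SLC38A2 lead in both media, and SLC7A8 lies near 1.95 CPM per kb in RPMI plus B27 and near 5.18 in DMEM plus fatty acids.

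As a share of the summed level per kb of all 31 genes, the SLC38 family held 47.0% to 53.3% in RPMI plus B27 against 45.8% to 57.3% in DMEM plus fatty acids, and SLC1 held 18.6% to 23.5% and 14.9% to 26.8%. Both ranges overlapped between media. SLC7 held 18.5% to 20.5% in RPMI plus B27 and at most 17.3% in DMEM plus fatty acids, without overlap, although both called genes belong to it. This is a share, and the summed level of SLC7 itself overlapped between the media (248 to 283 against 225 to 308 CPM). SLC3, which is SLC3A2 almost alone, held 3.90% to 4.82% and 5.17% to 9.60%. By median log2 fold change of the members tested, the families ran from -0.41 (SLC1, 5 genes) over -0.21 (SLC6, 2 genes), -0.12 (SLC36, 2 genes) and -0.09 (SLC7, 7 genes) to 0.52 (SLC38, 8 genes), 0.73 (SLC43, 2 genes) and 0.98 (SLC3, 1 gene), beside 0.01 for all tested genes.

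Of 29 other amino acid transporter genes, including those of mitochondria, 17 were tested, 1 was called higher and 0 lower (edgeR, 5 at an unadjusted p under 0.05, 3 higher and 1 lower by DESeq2), with a median log2 fold change of 0.15. Over all genes, edgeR called 0.292% higher and 1.07% lower, and DESeq2 2.47% and 5.24%. At an unadjusted p under 0.05 (edgeR) the shares of all genes were 7.7% higher and 9.98% lower. SLC6A9, a glycine carrier of the SLC6 family, rose with a log2 fold change of 2.62 ± 0.39 (edgeR adjusted p 0.0397, 6.08e-09 to 0.121 over its 12 alternatives), a call lost without any 1 library. The SLC6 values given above for the members do not include it. SLC7A11, the light chain of the cystine and glutamate exchanger that also pairs with SLC3A2, was at 3.62, 1.40 and 1.27 CPM in RPMI plus B27 and at 33.1, 7.49 and 15.8 CPM in DMEM plus fatty acids. Its log2 fold change was 3.15 ± 0.64 with an edgeR adjusted p of 0.0676, and it was called with the block (0.00833), without a filter on low counts and by DESeq2 (4.94e-06 to 0.189 over its 12 alternatives). SLC6A17 and SLC7A4 had 1.55 and -1.03 and were called by DESeq2 (adjusted p 0.00718 and 0.0468) but not by edgeR (0.101 and 0.168).

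Of 28 amino acid response genes 27 were tested, 3 rose and 0 fell (edgeR, 16 at an unadjusted p under 0.05, 10 higher and 2 lower by DESeq2), and with the block 7 rose and 1 fell. The list's median was 0.56. The 3 were PSAT1 of serine synthesis (2.01 ± 0.32), SHMT2 of the mitochondrial folate pathway (1.27 ± 0.21) and the stress-induced regulator NUPR1, with edgeR adjusted p values of 0.0405 to 0.0427. NUPR1 had 8, 5 and 2 counts in RPMI plus B27 and 180, 54 and 103 in DMEM plus fatty acids, so it passed the filter through the latter libraries alone and its call supports nothing about the list. Without any 1 library 0 to 1 genes of the list were called higher. Beside these counts, edgeR called 0.292% of all genes higher and 1.07% lower, and 1.36% and 3.42% with the block. DESeq2 called 2.47% and 5.24% of all genes, and 7.7% and 9.98% had an unadjusted p under 0.05 (edgeR). TRIB3, a pseudokinase that restrains ATF4, had 2.49 ± 0.45 with an edgeR adjusted p of 0.0520 (0.0274 with the block). It was called in 4 of its 12 alternatives, those with the block, total count scaling, no filter on low counts and DESeq2 (1.60e-06 to 0.146 over all 12). PSAT1, SHMT2 and TRIB3 were known from earlier results on these samples, as was SLC6A9, so their direction is no independent evidence. Of 32 genes that sense amino acids at the lysosome upstream of mTORC1 0 were called (edgeR, 7 at an unadjusted p under 0.05, 5 higher by DESeq2), with a median of 0.16. The shares of all genes given above are the background of this list too. The 4 with the smallest p were FNIP2 (0.88 ± 0.18, edgeR adjusted p 0.0655, 0.0275 with the block, called in 4 of its 12 alternatives, 0.00144 to 0.198), DEPDC5 (0.50), SESN2 (0.80) and LAMTOR3 (0.57).

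ATF4 binds with C/EBP partners at a composite element whose core is written TGATGNAA. This core was searched on both strands in the 45 RefSeq windows of 24 transporters, which do not include SLC7A3. It was found in 6 genes, printed here 5′ to 3′ on the strand of the gene (GRCh38.p14, plus strand for SLC1A4, SLC1A3 and SLC3A2, minus for the other 3), with the match in capitals. For SLC1A4 and SLC3A2 the capitals are the reverse complement of the core, and several genes have other starts besides the one shown.
SLC1A4 (chr2:64989382-64989409): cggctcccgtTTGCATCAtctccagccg
SLC1A3 (chr5:36596358-36596385): aggaaatgacTGATGCAAagcagggtta
SLC3A2 (chr11:62881726-62881748): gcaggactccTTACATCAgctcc
SLC38A1 (chr12:46266503-46266530): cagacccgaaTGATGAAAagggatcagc
SLC7A1 (chr13:29595664-29595691): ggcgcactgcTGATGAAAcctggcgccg
SLC1A5 (chr19:46784894-46784921): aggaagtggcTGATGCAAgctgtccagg
These 6 are 6 of the 24 genes with a window, in 6 of their 45 windows, and the core occurs in 4.46% of all 27305 genes and 3.62% of all 35116 windows. Of the 6, SLC1A4 rose in the fit with the block, SLC3A2 had non-overlapping groups without a call, and SLC1A3, SLC1A5, SLC38A1 and SLC7A1 had overlapping groups. CACGTG, the E-box core of MYC and of the lysosomal factor TFEB, was found in 8 of the 24 genes and in 8.77% of all genes. By window it was found in 8 of 45 and in 7.26% of all windows. Those 8 were SLC1A5, SLC36A1, SLC38A5, SLC38A7, SLC43A1, SLC7A5, SLC7A7 and SLC7A8. None of the matches of the 3 motifs in these windows overlapped another, and none was tested as a site.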

How the data were processed

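RNA sequencing libraries of 6 samples (stranded mRNA kit, per the labels' protocols) were aligned to hg38 with STAR and counted with HTSeq, per the submitters' processing notes. Versions, gene annotation and strand setting are not given in the sources used here. The deposited values are raw counts for each gene symbol, with no normalization. Rows naming no gene (5.44% to 7.57% no feature, 3.90% to 4.15% ambiguous and 3.05% to 4.10% not uniquely aligned) were left out.

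The test was that of edgeR 4.0.16 under R 4.3.3 (filterByExpr, minimum count 10 and minimum total 15, TMM scaling, quasi-likelihood test over all 6 libraries, Benjamini-Hochberg over all 16107 genes tested, threshold 0.05). Standard errors and 95% intervals follow from the F statistic. The alternatives were RLE and total count scaling, 2 other filters, DESeq2 1.42.0, the replicate block and each library left out. The fit was checked on simulated counts.

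Replicate numbers pair the libraries: deviations from the medium's mean correlated at 0.31, 0.43 and 0.37 for equal numbers and at -0.24 to -0.14 for others, although the labels do not say what the numbers share. No 2 libraries agreed within sampling noise (smallest chi-square per degree of freedom 31.5). The labels call the libraries biological replicates and name no source culture, so p-values measure the spread between these samples.

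Gene positions, exon lengths and overlaps come from GENCODE 29 (GRCh38), which may not be the annotation used for counting. Promoter sequences are from a table made from RefSeq (GRCh38.p14), in which 24 of the 31 genes were matched. The members, gene lists and ratios were chosen with earlier results of these data known. All 31 members are named, and of each gene list up to 4 genes with the smallest p.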

Additional observations from a re-analysis of the deposited data

How the results depend on the processing

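Of 322 values of single transporters under an alternative, 296 kept their direction and their side of the threshold, 10 lost a call, 4 gained one and 12 changed sign, in 7 genes that were never called. The number of genes called over all genes (219) was 539 without a filter on low counts, 119 with a minimum of 10 counts asked of each library, 1218 by DESeq2, 770 with the replicate block and 3 to 131 without 1 library. The 2 transporters called higher became 1 with that minimum, 4 by DESeq2 and 0 to 1 without 1 library, and the 0 called lower became 1 by DESeq2. With the replicate block, transporters called higher numbered 3 and those called lower 0. The stricter filter tests fewer genes and the left-out libraries leave fewer samples, and otherwise the cause was not tested.

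The 1 other amino acid transporter called higher became 2 without a filter, 3 by DESeq2, 2 with the replicate block and 0 without any 1 library, and DESeq2 called 1 lower. The 3 amino acid response genes called higher became 5 under total count scaling, 6 without a filter, 1 with that minimum, 10 by DESeq2, 7 with the block and 0 to 1 without 1 library, and those called lower became 2 by DESeq2 and 1 with the block. Lysosomal sensing genes called higher numbered 1 under total count scaling, without a filter and with the block, and 5 by DESeq2.

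Scaling by total counts, which moved the median of all genes from 0.01 to 0.12, put the median of SLC36 at -0.0033, that of SLC43 at 0.85 and SLC7A5 at 0.0070. Without 1 library the median of SLC6 ran from -0.49 to 0.39 and that of SLC43 from 0.54 to 0.89. The log2 fold change then ran from -0.51 to 0.68 for SLC6A6, -0.49 to 0.11 for SLC6A15, -0.14 to 0.29 for SLC7A1, -0.86 to 0.10 for SLC7A2, -0.37 to 0.17 for SLC7A5, -0.074 to 0.18 for SLC36A1 and -0.17 to 0.18 for SLC38A10. The difference of the log2 ratio ran from -0.20 to 0.26 for SLC38A2 over SLC38A1 and from -0.58 to 1.22 for SLC43A1 over SLC43A2. Within pairs of the replicate block no ratio could pass, since an exact sign-flip test of 3 pairs cannot give a p under 0.25. With 3 libraries a medium the 95% interval lay within 1 log2 unit of 0 for 10 of the 27 transporters.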
